A study of Mus musculus with 8 samples.

Results

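NF-kB is a family of transcription factors that answer cytokines, microbial products and cell stress. The genes described here are the 5 subunit genes Nfkb1, Nfkb2, Rel, Rela and Relb and the 5 inhibitor genes Nfkbia, Nfkbib, Nfkbie, Tnfaip3 and Bcl3. They were chosen by gene symbol, each symbol matched 1 row, and they are 10 of the 77981 genes in the table. Expression was measured by RNA sequencing of mouse kidney samples whose cell type label is IMCD, the inner medullary collecting duct, in 8 libraries. 4 libraries are of the AVP-flox genotype, with the vasopressin gene Avp between loxP sites, and the other 4 are of the AVP-flox;Cre genotype, with a Cre recombinase added. All 8 were labelled with tamoxifen, the drug that activates inducible forms of Cre, so the floxed allele and the drug are shared by both groups and no library has Cre without floxed Avp. The labels used here do not name the promoter that drives Cre, the age or sex of the mice, or whether replicates are separate animals. The p-values therefore measure the spread between these samples, which may be partly technical.

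The subunits form dimers that are held in the cytoplasm by IkB proteins. In the classical pathway the IkB kinase complex (IKK) marks IkB for degradation, and dimers of RelA (the product of Rela) and p50 (made from the Nfkb1 product) enter the nucleus. In the alternative pathway the Nfkb2 product is processed and acts with RelB. Among the genes that NF-kB switches on are inhibitors of its own pathway, such as Nfkbia and Tnfaip3, which closes a feedback loop. In cultured mouse collecting duct cells NF-kB is known to lower transcription of Aqp2, the gene of the water channel that vasopressin controls.

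The promoters of the members differ in whether they hold the kB consensus, the DNA motif that NF-kB dimers bind. RefSeq promoter sequences (GRCm38.p6) of 300 bases, from 250 before to 50 after an annotated start, were found for 8 of the 10 members, and Nfkb1 and Relb had none. The kB consensus was searched by its letters on both strands, and overlapping matches were joined into 1 stretch. It was present in 8 of the 11 windows of the members, against 8.46% of 32851 windows of all genes. By gene, 6 of the 8 members with a window had a match, against 9.55% of 27025 genes. Rela and Nfkbib were the members with no match in their window. The 250 bases before the start are shown for these 2 genes and for the feedback inhibitors Nfkbia and Tnfaip3, 5′ to 3′ on the strand of the gene, with kB matches in capitals.
Rela, chr19:5637291-5637540, plus strand: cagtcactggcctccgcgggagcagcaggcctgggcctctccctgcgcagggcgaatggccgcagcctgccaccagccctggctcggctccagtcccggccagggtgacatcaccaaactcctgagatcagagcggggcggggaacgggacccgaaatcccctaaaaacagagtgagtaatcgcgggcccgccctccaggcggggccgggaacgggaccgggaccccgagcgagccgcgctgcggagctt
Nfkbib, chr7:28766645-28766894, minus strand: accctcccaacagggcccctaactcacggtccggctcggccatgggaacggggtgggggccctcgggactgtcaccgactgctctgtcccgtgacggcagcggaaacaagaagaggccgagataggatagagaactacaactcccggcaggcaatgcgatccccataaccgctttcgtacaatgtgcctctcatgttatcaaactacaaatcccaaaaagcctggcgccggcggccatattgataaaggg
Nfkbia, chr12:55492648-55492897, minus strand: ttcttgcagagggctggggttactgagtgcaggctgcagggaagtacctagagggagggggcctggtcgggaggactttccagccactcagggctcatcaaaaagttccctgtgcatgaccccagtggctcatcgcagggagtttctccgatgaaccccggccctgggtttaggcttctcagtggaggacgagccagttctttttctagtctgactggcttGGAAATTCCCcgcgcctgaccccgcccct
Tnfaip3, chr10:19015411-19015660, minus strand: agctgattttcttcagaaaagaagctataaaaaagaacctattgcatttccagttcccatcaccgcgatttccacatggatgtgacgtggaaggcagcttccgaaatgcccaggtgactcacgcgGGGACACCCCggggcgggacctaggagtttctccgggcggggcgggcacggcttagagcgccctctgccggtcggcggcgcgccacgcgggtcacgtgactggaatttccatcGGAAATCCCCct
The match of Nfkbia began 29 bases before its start, and those of Tnfaip3 began 125 and 12 bases before its start. A second annotated start of Tnfaip3 had no match. The stretch GGGAAATCCCC in the Rel window began 92 bases before the start, GGGGGATTCC in the Nfkbie window 106 bases before it, and GGGAAGTCCC in the Bcl3 window lay just after it. Nfkb2, with 3 annotated starts, had matches at each of them, among them GGGAATTCCCC and GGGACTTTCC, the latter 1 site shared by overlapping windows. A match is a description of these letters and not evidence of binding in these samples.

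Values are TPM, transcript abundances scaled by gene length and to 1 fixed total per library, so levels of different genes can be set beside each other. TPM keeps no read numbers, so the depth of the libraries is unknown. Between 33576 and 58232 genes were above 0 TPM, with the lowest number in AVP-flox;Cre 2, which also held the fewest genes of at least 1 TPM (16608), while AVP-flox;Cre 4 held the most (23412). Avp, which is made in the hypothalamus, was listed at no more than 0.27 TPM in any library and cannot show here whether it was deleted. Aqp2 stood at 14915 to 18131 TPM in AVP-flox and 5443 to 7036 TPM in AVP-flox;Cre, so the leading marker of the labelled cell type was abundant in every library. Over all genes, 5204 of 19043 tested passed an adjusted p of 0.05 in limma.

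Levels of Rela and Nfkbib were lower in AVP-flox;Cre than in AVP-flox, and no member rose past the test. Rela, the main activating subunit of the classical pathway, was 1.52-fold lower, and Nfkbib, which encodes the inhibitor IkB-beta, was 1.34-fold lower. The other 8 members did not pass the threshold. The 2 members called are 20% of the 10, against 27.3% of all tested genes, so the share is not above the background. Both were among the genes called lower, which were 14.2% of those tested. The groups did not overlap for the same 2 members, against 29.5% of all tested genes. The 10 members had a median log2 fold change of -0.03, against -0.01 for all tested genes. In bulk samples of this kind, fewer cells of a type and less RNA per cell cannot be told apart.

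**Figure D1:**
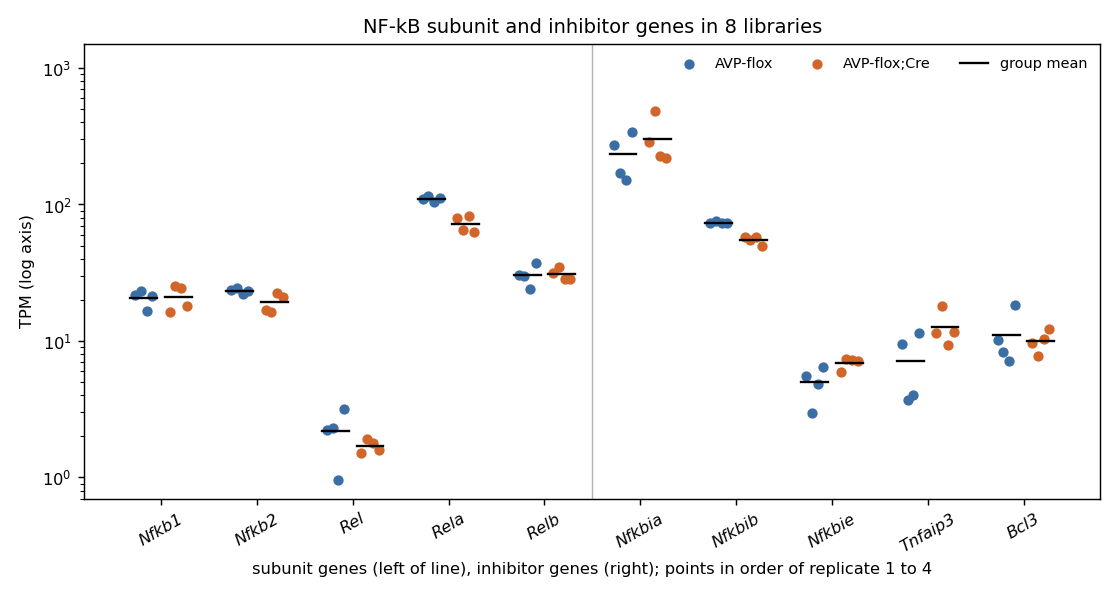
Level of each member in the 8 libraries, in TPM on a log axis, with points for AVP-flox (blue) and AVP-flox;Cre (orange) and a black line at each group mean of 4 libraries. Rela and Nfkbib are the members whose groups do not overlap, and the AVP-flox points of Nfkbia and Tnfaip3 are widely spread.

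Rela (ENSMUSG00000024927) stood at 109, 116, 104 and 111 TPM in AVP-flox 1 to 4 and at 80.1, 64.8, 82.2 and 63.0 TPM in AVP-flox;Cre 1 to 4. Every AVP-flox;Cre library was lower than every AVP-flox library, and within AVP-flox;Cre the libraries 2 and 4 were lowest. The means were 110 ± 5 and 72.5 ± 10.04 TPM (SD, n = 4 per group). The log2 fold change was -0.60 (SE 0.10, 95% interval -0.82 to -0.39, adjusted p = 0.00173 in limma). The exact permutation test of the means gave a two-sided p = 0.0286, the smallest that 4 against 4 allows.

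The first 300 bases of the longest annotated Rela transcript hold 77.0% GC, and this property moved with the group difference. Of 1753 tested genes within 5 percentage points of that GC content, 26.1% were called lower and 10.7% higher, and their median log2 fold change was -0.15. After each library was corrected for its trend with this GC content, the log2 fold change of Rela was -0.42 (adjusted p = 0.00254 in limma). With 3 libraries left out (AVP-flox 2, AVP-flox;Cre 2 and AVP-flox;Cre 4) it was -0.41 (adjusted p = 0.0226 in limma). For Rela these were the highest AVP-flox library and the lowest AVP-flox;Cre libraries, so leaving them out brings the groups closer. Over the 23 alternatives tried, Rela kept its direction and its call, with adjusted p from 0.00104 to 0.0226. Among them a looser threshold of 0.1 could not have ended the call.

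Nfkb2 (ENSMUSG00000025225), the precursor gene of the alternative pathway, stood at 23.6, 24.4, 22.2 and 23.4 TPM in AVP-flox and at 17.0, 16.2, 22.5 and 21.1 TPM in AVP-flox;Cre. Libraries 1, 2 and 4 of AVP-flox;Cre lay below all AVP-flox libraries, while AVP-flox;Cre 3 lay within their range. The log2 fold change of -0.29 (95% interval -0.54 to -0.03) did not pass the threshold over all genes (adjusted p = 0.0938 in limma), and the exact permutation test gave a two-sided p = 0.0571. Its partner gene Relb (ENSMUSG00000002983) was at 30.7, 30.03, 24.1 and 37.2 TPM in AVP-flox and at 31.6, 34.9, 28.3 and 28.4 TPM in AVP-flox;Cre. The 2 ranges of Relb cover each other, and the 95% interval of its log2 fold change, -0.26 to 0.32, sets the size of difference that these libraries leave possible.

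Nfkb1 (ENSMUSG00000028163), which encodes the precursor of p50, stood at 21.9, 23.4, 16.6 and 21.3 TPM in AVP-flox and at 16.2, 25.4, 24.6 and 18.1 TPM in AVP-flox;Cre. The Cre libraries split around the AVP-flox range, with replicates 2 and 3 above all AVP-flox libraries and replicate 1 just below them. The means of 20.8 ± 2.9 and 21.1 ± 4.6 TPM differed by less than the spread (95% interval of the log2 fold change -0.36 to 0.37, adjusted p = 0.981 in limma). Rel (ENSMUSG00000020275), the subunit gene c-Rel best known from lymphocytes, was the lowest of the 10. It was listed at 2.23, 2.31, 0.96 and 3.20 TPM in AVP-flox and at 1.5, 1.90, 1.79 and 1.58 TPM in AVP-flox;Cre, a range that lies inside that of AVP-flox. Its adjusted p was 0.621 in limma.

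The sum of the 5 subunit genes was 168 to 196 TPM in AVP-flox. In AVP-flox;Cre it was 132 to 160 TPM, below every AVP-flox library. Rela made up 56.7% to 62.0% of that sum in AVP-flox and 45.2% to 54.7% in AVP-flox;Cre. Relb made up 14.3% to 18.9% and 17.8% to 24.4%. The ratio of Rela to Relb was 2.99 to 4.33 in AVP-flox and 1.86 to 2.90 in AVP-flox;Cre. These are descriptions of RNA levels in which Rela carries most of the difference, and they say nothing of the amount of protein or of dimers in the nucleus. They use TPM without the GC correction, with which the log2 fold change of Rela was -0.42.

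**Figure D2:**
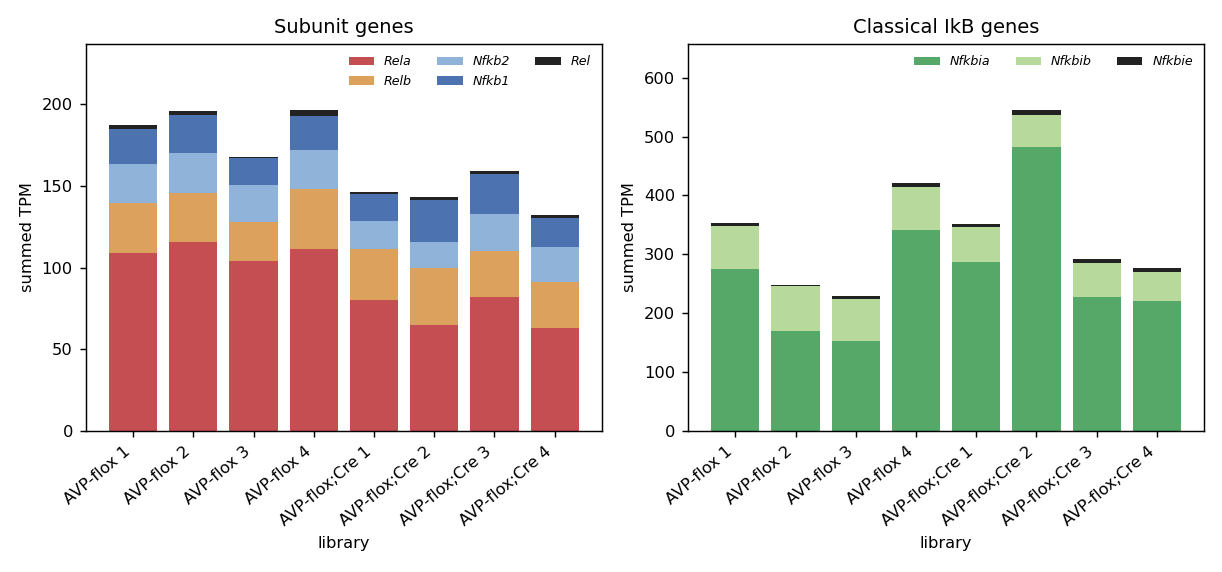
Stacked TPM of the 5 subunit genes (left) and of the IkB genes Nfkbia, Nfkbib and Nfkbie (right) in each library, with both axes starting at 0. The subunit sum is 168 to 196 TPM in AVP-flox against 132 to 160 TPM in AVP-flox;Cre, while the IkB sum follows Nfkbia and is highest in AVP-flox;Cre 2 (544 TPM).

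Nfkbib (ENSMUSG00000030595) was the most even member. It stood at 72.9, 75.5, 72.7 and 73.6 TPM in AVP-flox and at 58.0, 55.4, 57.5 and 49.3 TPM in AVP-flox;Cre. No AVP-flox;Cre library reached the lowest AVP-flox library, and AVP-flox;Cre 4 was lowest. The means were 73.7 ± 1.3 and 55.04 ± 4.00 TPM, with a log2 fold change of -0.42 (SE 0.07, 95% interval -0.58 to -0.26, adjusted p = 0.00236 in limma). The exact permutation test gave a two-sided p = 0.0286. Its transcript start holds 59.7% GC, where 15.5% of 5841 genes were called lower and 16.1% higher. With the GC correction its log2 fold change was -0.42 (adjusted p = 0.0033), and over the 23 alternatives its adjusted p ran from 0.00146 to 0.0323.

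Nfkbia (ENSMUSG00000021025), the gene of IkB-alpha the inhibitor that NF-kB itself re-induces after activation, was the most abundant member in both groups. It stood at 275, 170, 152 and 341 TPM in AVP-flox and at 288, 482, 227 and 220 TPM in AVP-flox;Cre. The groups overlapped, with AVP-flox 1 and 4 well above AVP-flox 2 and 3, and AVP-flox;Cre 2 was highest of all. The means of 235 ± 89 and 304 ± 122 TPM were not separated (log2 fold change 0.38, 95% interval -0.29 to 1.05, adjusted p = 0.396 in limma). Without AVP-flox;Cre 2 the log2 fold change was 0.13 (adjusted p = 0.745). Over the 23 alternatives the log2 fold change was 0.076 to 0.583, with adjusted p from 0.196 to 0.906 in limma.

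Tnfaip3 (ENSMUSG00000019850) encodes A20, a ubiquitin-editing enzyme that shuts down signalling to IKK. It stood at 9.46, 3.68, 4.05 and 11.4 TPM in AVP-flox and at 11.5, 17.9, 9.29 and 11.6 TPM in AVP-flox;Cre. As for Nfkbia, AVP-flox 1 and 4 were high, AVP-flox 2 and 3 were low, and AVP-flox;Cre 2 was highest. The group means, 7.15 ± 3.88 and 12.6 ± 3.7 TPM, gave the highest fold change of the 10 members (1.75-fold, log2 fold change 0.83, 95% interval 0.09 to 1.56), but it did not pass the threshold over all genes (adjusted p = 0.0906 in limma, exact permutation p = 0.143). It passed without AVP-flox 4 (log2 fold change 1.07, adjusted p = 0.0396) and not in any other alternative at that threshold, where adjusted p reached 0.57.

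Nfkbie (ENSMUSG00000023947), the gene of IkB-epsilon, stood at 5.53, 2.99, 4.87 and 6.49 TPM in AVP-flox and at 5.95, 7.35, 7.25 and 7.18 TPM in AVP-flox;Cre. Libraries 2, 3 and 4 of AVP-flox;Cre were above all AVP-flox libraries and AVP-flox;Cre 1 was within their range. The log2 fold change of 0.44 (95% interval 0.01 to 0.88) had an adjusted p = 0.122 in limma and an exact permutation p = 0.0571. Without AVP-flox 2, the lowest library, the log2 fold change was 0.26 (adjusted p = 0.246). Over the 23 alternatives it was 0.199 to 0.565, with adjusted p from 0.0715 to 0.523 in limma. Bcl3 (ENSMUSG00000053175) encodes a nuclear IkB family protein that acts with p50 and p52 dimers. It stood at 10.2, 8.28, 7.08 and 18.4 TPM in AVP-flox and at 9.65, 7.70, 10.4 and 12.3 TPM in AVP-flox;Cre, a range within that of AVP-flox (adjusted p = 0.899 in limma).

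**Figure D3:**
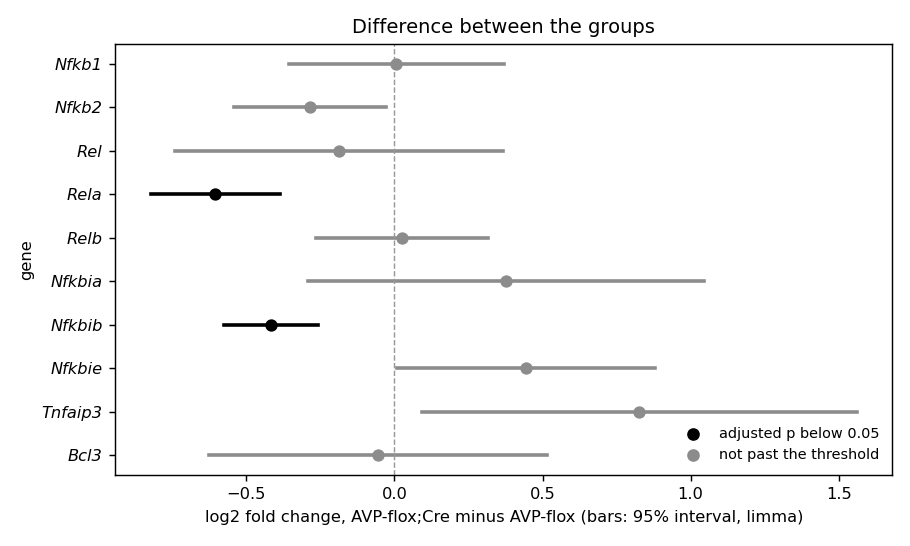
Log2 fold change of each member, AVP-flox;Cre minus AVP-flox, with its 95% interval from limma on log2(TPM + 1), black where the adjusted p is below 0.05. Rela (-0.60) and Nfkbib (-0.42) lie below 0, and the widest interval is that of Tnfaip3 (0.09 to 1.56).

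The members thus differed in how far libraries of 1 group varied. In AVP-flox the coefficient of variation (the SD as a percentage of the mean) was 1.75% for Nfkbib, 3.86% for Nfkb2 and 4.46% for Rela. It was 38.0% for Nfkbia, 42.4% for Rel, 46.5% for Bcl3 and 54.3% for Tnfaip3. In AVP-flox;Cre it was 7.27% for Nfkbib, 16.0% for Nfkb2 and 13.8% for Rela, against 40.1% for Nfkbia, 10.9% for Rel, 19.1% for Bcl3 and 29.6% for Tnfaip3, so Rel and Bcl3 were uneven in AVP-flox and less so in AVP-flox;Cre. Nfkb1 was at 14.1% and 21.9%. AVP-flox 4 was the highest AVP-flox library for Nfkbia, Tnfaip3, Nfkbie, Bcl3, Rel and Relb, and AVP-flox 3 was the lowest for every member except Tnfaip3 and Nfkbie, which were lowest in AVP-flox 2.

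Summed leukocyte markers moved in part with these levels. The sum of 16 markers of macrophages and other leukocytes was 457, 226, 365 and 517 TPM in AVP-flox 1 to 4 and 595, 348, 338 and 520 TPM in AVP-flox;Cre 1 to 4. AVP-flox 4 and 1 were thus high for these markers as for Nfkbia and Tnfaip3, while AVP-flox;Cre 2, the highest library for both genes, was not. AVP-flox;Cre 1 was highest for the markers, with Nfkbia at 288 TPM and Tnfaip3 at 11.5 TPM. The sum was led by Cd74 and Lyz2, at 183 and 87.8 TPM on average in AVP-flox. The part of leukocytes in the levels of the inhibitors was not tested.

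**Figure D4:**
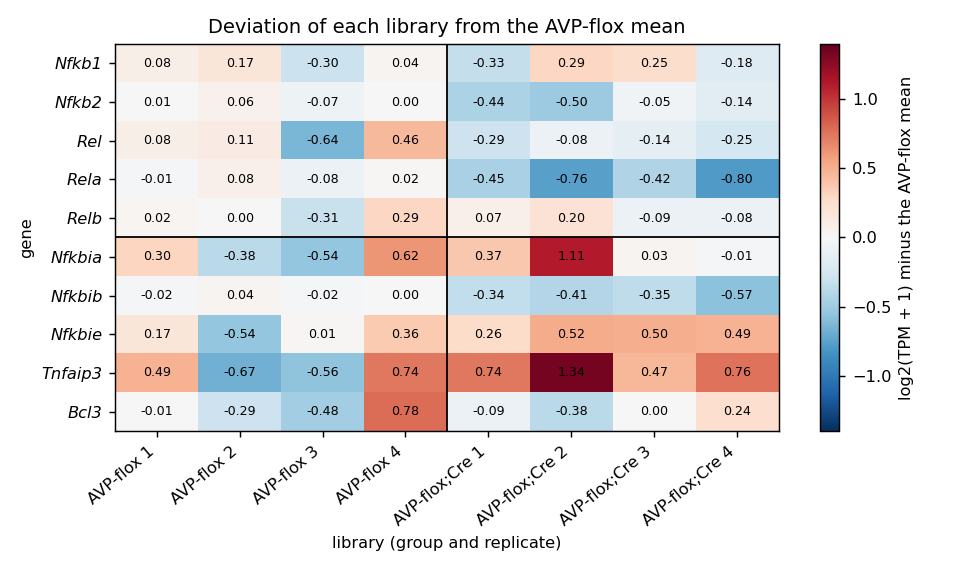
Log2(TPM + 1) of each member in each library minus its AVP-flox mean, in red where higher and blue where lower, with subunits above the horizontal line and inhibitors below it. The rows of Rela and Nfkbib are near 0 in AVP-flox and negative in all 4 AVP-flox;Cre libraries, and Tnfaip3 runs from -0.67 in AVP-flox 2 to 1.34 in AVP-flox;Cre 2.

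The order of levels was similar in the groups. Nfkbia was highest in both, followed by Rela, Nfkbib and Relb, and these neighbours did not overlap within either group. In AVP-flox all further neighbours overlapped, in the order Relb, Nfkb2, Nfkb1, Bcl3, Tnfaip3, Nfkbie and Rel. In AVP-flox;Cre the order was Relb, Nfkb1, Nfkb2, Tnfaip3, Bcl3, Nfkbie and Rel, where Relb was separate from Nfkb1, Bcl3 from Nfkbie and Nfkbie from Rel. Nfkbia had a higher mean than 96.9% of tested genes and Rela than 88.0%, while Rel was higher than 19.4%. Nfkbia made up 66.3% to 81.0% of the sum of the 3 IkB genes in AVP-flox and 77.8% to 88.5% in AVP-flox;Cre. The ratio of Nfkbia to Rela was 1.46 to 3.07 and 2.77 to 7.44, and the ratio of the IkB sum to the subunit sum was 1.27 to 2.15 and 1.83 to 3.80, so both ratios overlapped between the groups.

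The genes whose profile over the 8 libraries was nearest to that of Rela, among 11946 genes averaging 5 TPM or more, were Stk24, Epb41l4b and Cdk17. Likeness was the root mean square difference between log2(TPM + 1) profiles centred on their mean, and it was 0.058, 0.062 and 0.063. The starts of these 3 genes hold 81.0%, 85.0% and 80.7% GC, which is as high as that of Rela or higher. The genes nearest to Nfkbib were Rtraf (0.036), Rbm42 (0.042) and Tfip11 (0.044), with 54.3%, 64.0% and 52.3% GC. Likeness over 8 libraries from 2 groups is a description of shared levels in these samples.

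The rest of the pathway was read from 5 gene lists. They were chosen with earlier results of these data known, so their called shares describe the lists and are not independent evidence. Of 14 genes of the IKK complex and kinase list, all tested, 3 rose, 2 fell and 9 did not pass. The list also holds genes that do not encode kinases, namely Ikbkg, Tab1, Tab2 and Tab3. The called share was 35.7%, against 27.3% of all tested genes, and the median log2 fold change was 0.07. Ikbke, an IKK-related kinase of the interferon response, rose 3.83-fold, from 1.44 to 2.16 TPM in AVP-flox to 5.11 to 10.4 TPM in AVP-flox;Cre (adjusted p = 0.00111 in limma). Irak4, a kinase of Toll-like and interleukin-1 receptors, rose 1.54-fold, and Map3k8, a MAP kinase activator held by p105, rose 2.00-fold (adjusted p = 0.000975 and 0.00232). The IKK scaffold gene Ikbkg fell from 50.0 ± 5.3 to 38.2 ± 2.9 TPM (adjusted p = 0.0158), a call that ended in 3 of the 23 alternatives, among them the fits with no filter on low values (0.0606) and without AVP-flox 2, AVP-flox;Cre 2 and AVP-flox;Cre 4 together (0.113). The catalytic IKK genes Chuk (58.6 ± 6.0 and 51.8 ± 5.3 TPM) and Ikbkb (74.6 ± 5.9 and 78.8 ± 3.4 TPM) did not pass, with adjusted p = 0.221 and 0.473 in limma. Irak1 fell by 0.32 on the log2 scale (adjusted p = 0.0317), a call that ended without any 1 of AVP-flox 1, 2 or 3 or AVP-flox;Cre 2, 3 or 4 (adjusted p from 0.0528 to 0.0775). With the GC correction it was -0.17 (adjusted p = 0.145, range over the alternatives 0.0192 to 0.228), and its start holds 75.0% GC.

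Among 20 adaptors and ubiquitin ligases 3 rose, 1 fell and 16 did not pass, and the median was -0.01. The called share of 20% is below the 27.3% of all tested genes. Card10, a scaffold that links G protein-coupled receptors to IKK in non-lymphoid cells, stood at 17.4 ± 1.6 TPM in AVP-flox and rose to 33.5 ± 1.2 TPM (0.91 on the log2 scale, SE 0.09, adjusted p = 0.000117 in limma). Traf3, which restrains the alternative pathway, rose 1.62-fold (adjusted p = 0.0216), Rbck1, of the linear ubiquitin ligase, rose 1.19-fold (adjusted p = 0.033), and Ticam1, the adaptor of Toll-like receptor 3, fell 1.36-fold (adjusted p = 0.0326). These 3 calls ended when single libraries were left out. That of Traf3 ended without AVP-flox 2 or 3 or AVP-flox;Cre 3 (adjusted p from 0.0583 to 0.0648). That of Rbck1 ended without AVP-flox 1, 3 or 4 or AVP-flox;Cre 2, 3 or 4 (0.0596 to 0.0758), and that of Ticam1 without AVP-flox 1, 2 or 3 or AVP-flox;Cre 1, 2 or 4 (0.0564 to 0.0873). Over all alternatives adjusted p reached 0.135 for Traf3, 0.123 for Rbck1 and 0.234 for Ticam1.

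Of 22 genes listed as other negative regulators 21 were tested, and 4 rose, 2 fell and 15 did not pass, and the median was 0.10. Not all of them act only as brakes, so these counts do not give the state of the pathway. The called share of 28.6% is close to the 27.3% of all tested genes. Nlrc5, which is best known as the activator of MHC class I genes, rose from 2.15 ± 0.33 to 6.90 ± 2.12 TPM (adjusted p = 0.0026 in limma), and Itch, a ubiquitin ligase that works with A20, rose 1.43-fold (adjusted p = 0.00975). Nfkbiz, a nuclear IkB gene, stood at 12.1 to 14.9 TPM in AVP-flox and 17.1 to 29.8 TPM in AVP-flox;Cre and rose 1.58-fold (adjusted p = 0.0227). Nlrc3 rose 2.24-fold and Irak3, a brake on interleukin-1 receptor signalling, fell 1.62-fold (adjusted p = 0.0264 and 0.0193). The call of Nfkbiz ended without AVP-flox 2 or 4 or AVP-flox;Cre 3 (0.0512 to 0.0631). That of Nlrc3 ended without AVP-flox 2 or 3 or AVP-flox;Cre 3 (0.0578 to 0.0711), and that of Irak3 without AVP-flox 1 or 3 or AVP-flox;Cre 1 (0.0503 to 0.0552). Over all alternatives adjusted p ran from 0.0162 to 0.139 for Nfkbiz, from 0.0126 to 0.101 for Nlrc3 and from 0.0101 to 0.102 for Irak3.

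Of 32 ligands and receptors of the pathway 21 were tested, and 10 rose, 1 fell and 10 did not pass, and the median was 0.35. The called share was 52.4%, against 27.3% of all tested genes, and 13.1% of all tested genes were called higher. As for the other lists, earlier results were known when it was chosen, so this share is a description. Cd14, the co-receptor of bacterial lipopolysaccharide, rose from 21.3 ± 2.9 to 53.1 ± 1.5 TPM, and every AVP-flox;Cre library was between 51.9 and 55.1 TPM. The rise was 1.29 on the log2 scale (SE 0.10, adjusted p = 3.55e-05 in limma). The interleukin-1 family gene Il33 rose 3.84-fold and Il18r1, of the interleukin-18 receptor, rose 3.08-fold (adjusted p = 0.000805 and 0.000697). Ltb, a ligand of the alternative pathway, stood at 0.57 to 0.79 TPM in AVP-flox and 2.43 to 5.21 TPM in AVP-flox;Cre. Ltb and Tlr5 were below 1 TPM on average in AVP-flox and passed the filter through AVP-flox;Cre, so they could only have differed. Among genes of at least 1 TPM in both group means, a limit chosen after seeing the data, 9 of 18 ligands and receptors were called (50%), against 28.7% of all such genes. Tnfrsf11a, which encodes the receptor RANK, fell 4.15-fold, from 25.9 to 36.3 TPM to 5.56 to 12.1 TPM (log2 fold change -1.97, adjusted p = 0.000194). The receptor genes Tnfrsf1a and Ltbr, of tumour necrosis factor and lymphotoxin, did not pass, at 102 ± 4 and 111 ± 10 TPM and at 68.9 ± 3.3 and 71.2 ± 3.6 TPM. Tnf was 1 of the 11 genes below the filter, at 0.01 to 0.72 TPM in AVP-flox and 0.55 to 2.06 TPM in AVP-flox;Cre (exact permutation p = 0.0571).

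Of 35 other known NF-kB target genes 27 were tested, and 12 rose, 3 fell and 12 did not pass, and the median was 0.37. The called share was 55.6%, against 27.3% of all tested genes, and 13.1% of all tested genes were called higher. The chemokine gene Ccl2 stood at 4.2 to 7.33 TPM in AVP-flox and 25.3 to 33.0 TPM in AVP-flox;Cre, a 4.88-fold rise. Ier3, an early response gene, rose from 40.4 ± 7.3 to 132 ± 26 TPM, by 1.68 on the log2 scale (SE 0.15, adjusted p = 8.1e-05 in limma). Lcn2, of lipocalin 2, rose 4.66-fold, and the antigen processing genes Psmb9 and Tapbp rose 2.61-fold and 1.41-fold. The mitochondrial dismutase gene Sod2, Plk3 and Tnfaip2 fell, by 0.41, 1.42 and 0.77 on the log2 scale. Psmb9, Tapbp, Tap1 and Irf1 are induced by interferon as well, and the interferon factor gene Irf7 was at 25.9 to 29.2 TPM in AVP-flox and 109 to 171 TPM in AVP-flox;Cre. The part of interferon in these levels was not tested. Rises of Ccl2, Lcn2 and Vcam1 were known when the list was made and are not independent evidence of its direction.

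**Figure D5:**
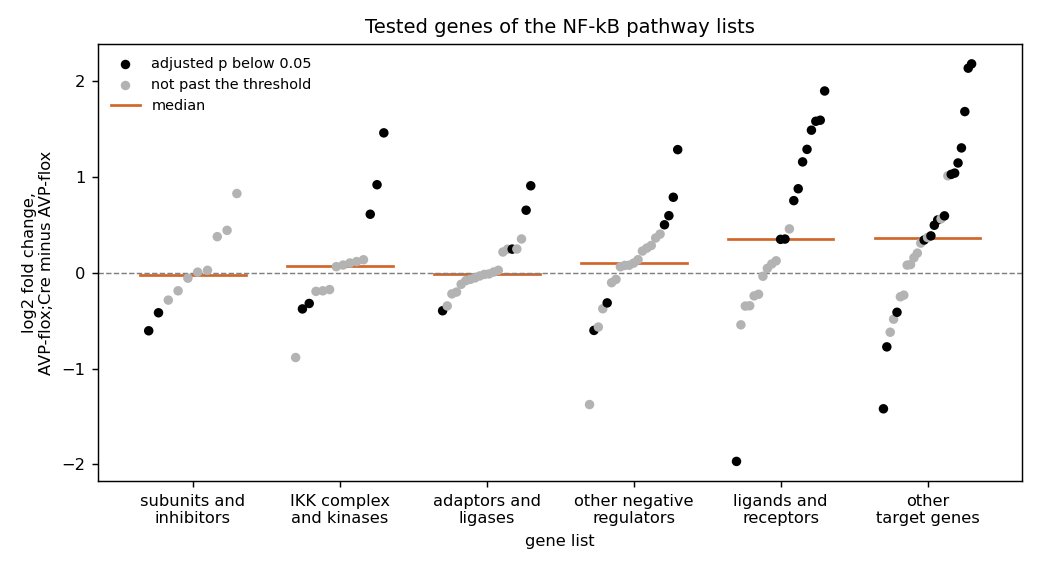
Log2 fold change, AVP-flox;Cre minus AVP-flox, of every tested gene of each list, sorted within a list, black where the adjusted p is below 0.05, with an orange line at the list median. Medians are -0.03 for the 10 members and 0.37 for the 27 other target genes, and the lowest point among ligands and receptors is Tnfrsf11a (-1.97).

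The median level of the target list was uneven between libraries of the Cre genotype. Relative to the mean of the 8 libraries it was -0.29 to -0.15 on the log2 scale in AVP-flox and 0.04, 0.44, 0.22 and 0.21 in AVP-flox;Cre 1 to 4. AVP-flox;Cre 2 was highest, as it was for Nfkbia, Tnfaip3, Nfkbiz, Ier3 and Lcn2. Without it the log2 fold change was 0.66 for Tnfaip3 (adjusted p = 0.195 in limma) and 0.13 for Nfkbia.

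Markers of other cells in the kidney also differed between the libraries. Principal cell markers summed to 20323 to 23864 TPM in AVP-flox and 11269 to 13093 TPM in AVP-flox;Cre, a sum led by Aqp2. Of these 14 markers 4 rose, 4 fell and 6 did not pass. Of 12 tested leukocyte markers 1 rose (Csf1r) and 11 did not pass, and Itgam was at 0 in at least 1 library. Of 9 fibroblast and pericyte markers 4 rose and 5 did not pass, with sums of 143 to 196 and 293 to 364 TPM. Of 8 endothelial markers 4 rose and 2 fell, with sums of 2430 to 2517 and 2123 to 2199 TPM. Their median log2 fold change was 0.36, and the lower sum was led by Emcn, at 705 and 362 TPM on average. Of 6 tested intercalated cell markers 3 rose, with sums of 172 to 281 and 254 to 339 TPM. Called shares were 57.1% for principal cell, 8.33% for leukocyte, 44.4% for fibroblast and pericyte, 75% for endothelial and 50% for intercalated cell markers. The background over all tested genes was 27.3%. Proximal tubule markers summed to 42.8 to 678 TPM in AVP-flox and 94.6 to 247 TPM in AVP-flox;Cre, and those of thick limb and distal tubule to 391 to 2401 and 608 to 924 TPM. Bulk libraries do not show which of these cells express the members, and the part of the cell mixture in the differences described was not tested.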

How the data were processed

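The authors deposited a table of TPM per Ensembl mouse gene, with 1 column per library. The submitters' processing notes name STAR and RSEM and no version. The build and annotation were not given in the sources used here. Per the labels, cDNA was made with the SMART-Seq HT kit. Columns headed WT were taken as AVP-flox and those headed KO as AVP-flox;Cre, by replicate number. Of 78298 identifiers, 312 symbols with several were summed, leaving 77981 genes. Genes averaging 1 TPM or more (19043) were tested on log2(TPM + 1) with limma 3.58.1 (R 4.3.3), a mean-variance trend and Benjamini-Hochberg adjustment at 0.05, two-sided. This scale understates changes of low genes. Fold changes are ratios of mean TPM. Single genes were also compared by exact permutation (SciPy 1.17.1), with 70 divisions. The fit was tested on simulated data. GC content came from GENCODE M21 transcripts, which may not be the authors' release (83.9% of tested genes matched).

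The members and lists were chosen with earlier results of these data known. Named genes were the 10 members, Aqp2, the called genes of each list that had the lowest adjusted p (at most 5), and the 3 genes nearest to each called member. Other genes were named after their values were seen. The 23 alternatives were a replicate block, 2 pseudocounts, 2 filters, 3 scalings, 3 variance models, unsummed identifiers, another threshold, a GC correction and libraries left out. Count tests were not run because TPM keeps no counts.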

Additional observations from a re-analysis of the deposited data

Results flagged for a closer look

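A library stood apart from the other 3 of its group by Dixon's test in 8 of 96 groups of 4 libraries screened (48 genes), where chance gives about 1 in 20 groups. Among the members this concerned Nfkbie alone, which was lowest in AVP-flox;Cre 1 (5.95 TPM) while the other AVP-flox;Cre libraries were at 7.18 to 7.35 TPM. Of the pathway genes, Irak1 (80.14 TPM) and Itch (68.47 TPM) were highest in AVP-flox 2, Traf3 was highest in AVP-flox;Cre 3 (17.92 TPM) and Lcn2 was highest in AVP-flox;Cre 2 (402.38 TPM). Of the genes with profiles near those of Rela and Nfkbib, Cdk17 was lowest in AVP-flox 3 (32.96 TPM), and Rtraf (78.37 TPM) and Rbm42 (122.61 TPM) were lowest in AVP-flox;Cre 4.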

How the results depend on the processing

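Rela and Nfkbib kept their direction and passed the threshold in all 23 alternatives, and 2 members were called in 21 of them. The exceptions were a threshold of 0.1, with 4 members (Tnfaip3 higher, and Rela, Nfkbib and Nfkb2 lower), and the fit without AVP-flox 4, with 3. The looser threshold could not have ended a call. Each member matched 1 row, so unsummed identifiers left the log2 fold changes of the members unchanged. Over all genes 5204 were called, against 3409 with no filter on low values and 2224 when AVP-flox 2 was left out together with AVP-flox;Cre 2 and 4. With single libraries left out the number was 3960 to 4769. Of the genes of the 5 lists 41 were called, against 21 without those 3 libraries and 32 to 42 with single libraries left out. Fewer libraries were fitted there, and more genes were tested with no filter. The differences near 0 changed sign without passing the threshold. Nfkb1 was -0.022 when rescaled without the most abundant and mitochondrially encoded genes, -0.06 with the GC correction and, with single libraries left out, -0.092 (AVP-flox 3) to 0.12 (AVP-flox;Cre 1), below 0 also without AVP-flox;Cre 2 or 3. Relb was -0.003 when rescaled in that way, -0.011 without the 3 libraries together and -0.078 (AVP-flox 3) to 0.124 (AVP-flox 4) with 1 left out, below 0 also without AVP-flox;Cre 2. Bcl3 was 0.048 with sample weights, 0.17 with the GC correction and -0.218 (AVP-flox 3) to 0.204 (AVP-flox 4) with 1 left out, above 0 also without AVP-flox;Cre 2. The cause of these changes was not tested. Whether replicate numbers pair the samples cannot be settled from 4 libraries a group. Deviations of same-numbered libraries correlated at 0.001 to 0.095, and those of differently numbered libraries at -0.063 to 0.068. With a replicate block 4431 genes, 2 members and 35 list genes were called. Among these list genes 3 were of the IKK complex and kinase list (against 5) and 2 of the adaptors (against 4). The block ended the calls of Ikbkg (adjusted p = 0.0535 in limma), Irak1 (0.0551), Traf3 (0.0542) and Ticam1 (0.0566). With no filter 3 genes of the IKK complex and kinase list, 1 adaptor and 2 negative regulators (against 6) were called. A threshold of 0.1 gave 7 adaptors. Without AVP-flox 3 there was 1 adaptor, without AVP-flox;Cre 2 or AVP-flox;Cre 4 there were 2, and without AVP-flox 2 there were 3 negative regulators. Without the 3 libraries together 2 genes of the IKK complex and kinase list, 1 adaptor, 1 negative regulator and 9 target genes (against 15) were called. That fit also ended the calls of Map3k8 (adjusted p = 0.0514 in limma), Nlrc5 (0.0791) and Tnfaip2 (0.132). Counting only genes of at least 1 TPM in both group means, chosen after seeing the data, left 39 list genes called. Rel was not tested with a filter at 5 TPM. TPM without depth gives no detection limit, which matters most for Rel and Tnf.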

Other observations

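A few genes, named after their values were seen, differed widely between libraries of 1 group. Fos, an early response gene, was at 73.3 TPM in AVP-flox;Cre 2 and at 2.30 to 11.2 TPM in the other 7 libraries. Egr1, of the same kind, was at 180 TPM in AVP-flox;Cre 2, 102 TPM in AVP-flox 4 and 96.5 TPM in AVP-flox;Cre 3, and at 3.96 to 7.48 TPM in the other 5. The chemokine gene Cxcl1, an NF-kB target, was at 54.3 TPM in AVP-flox;Cre 2 and at 8.22 to 24.6 TPM elsewhere. Map3k7, which encodes the kinase TAK1 upstream of IKK, was at 29.99 to 33.4 TPM in the 4 AVP-flox libraries. In AVP-flox;Cre 1 to 4 it was at 34.5, 12.5, 21.0 and 8.29 TPM, a difference that missed the threshold (-0.88 on the log2 scale, adjusted p = 0.0784 in limma).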
